A study of Homo sapiens with 12 samples.

Results

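The genes described here make and load autophagosomes or work in the lysosome. Of 40 listed genes, 39 had a probe set assigned to that gene alone, out of 19775 genes on the array, and all 39 were among the 10508 genes tested. The 1 gene left out was GLB1, a lysosomal galactosidase, whose probe set also carries another gene's symbol. The list was drawn up by known function in 6 roles, with earlier results of these data known. The roles were 6 genes of autophagosome initiation, 8 genes of the conjugation system and the ATG8 proteins it attaches, 4 cargo receptors, 3 transcription factors, 12 luminal lysosomal proteins (11 measured) and 7 lysosomal membrane proteins and proton pump subunits. The first 3 roles together are called the 18 autophagosome genes below, and the last 2 the 18 lysosomal genes measured. Each gene was read from its brightest probe set, by the mean of the 12 arrays.

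Affymetrix arrays measured mRNA in HK-2, an immortalised line of human kidney proximal tubule epithelium, grown in a defined medium with EGF, insulin and hydrocortisone. The abbreviation CsA was taken to mean cyclosporine A, a calcineurin inhibitor used against transplant rejection and known to harm the kidney. Cells were seeded a day before treatment and given CsA, at a dose that the labels do not state, or the matching amount of vehicle (control). The 4 groups were control 12 h, CsA 12 h, control 48 h and CsA 48 h, with 3 biological replicates each, all from the 1 cell line and with no other genetic change named. Nothing in the labels says whether replicates came from separate passages, so p-values measure the spread between these cultures.

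In autophagy a double membrane grows around cytoplasm. The ULK1 and beclin complexes start it, a conjugation system fixes LC3 and GABARAP proteins to it, and receptors such as p62 (SQSTM1) tie cargo to those proteins. The closed autophagosome fuses with a lysosome, whose proton pump acidifies the lumen so that its hydrolases can work. The related factors TFEB, TFE3 and MITF bind E-box sequences with the core CACGTG in promoters of many lysosomal and autophagy genes when they are in the nucleus, and proximal tubule cells depend on this system to clear filtered protein and damaged organelles.

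Values were log2 expression made with GCRMA, and differences between groups are on the log2 scale. Array medians ran from 2.85 to 2.96, and 38.3% to 38.8% of probe sets were above 4 on each array. Replicates of a group had a median SD per gene of 0.12 in both 12 h groups, 0.21 in control 48 h and 0.28 in CsA 48 h. The 5 epithelial markers KRT8, KRT18, KRT19, CDH1 and EPCAM were above 4 on every array. Of 12 markers of differentiated proximal tubule, 10 were at or below 4 on every array, among them the transporters SLC34A1 and SLC5A2 and the uptake receptors LRP2 and CUBN, and only PDZK1 was above 4 on all. The 4 leukocyte markers measured were at or below 4 on every array. Of 5 fibroblast markers, COL1A1, DCN and LUM were above 4 on every array and COL1A2 and PDGFRB at or below 4. The summed level of that list (log2) was 10.07 to 10.73 in control 12 h, 10.18 to 10.7 in CsA 12 h, 9.53 to 10.9 in control 48 h and 9.23 to 10.96 in CsA 48 h. DCN, a proteoglycan of the matrix, was at 7.91, 8.85 and 9.60 in control 48 h replicates 1, 2 and 3 and at 7.67, 8.91 and 9.97 in CsA 48 h, highest on replicate 3 in both, and LUM followed the same order. COL1A1 did not, at 7.73, 7.65 and 7.5 in control 48 h and at 7.56, 7.2 and 7.37 in CsA 48 h. Replicate 3 of both 48 h groups stood apart in the shifts given next, and the part of the fibroblast markers in that was not tested. Over the 1315 genes called higher at 48 h in controls, the median shift from the control 12 h mean was 0.94, 0.92 and 0.71 in control 48 h replicates 1, 2 and 3, and 0.98, 0.84 and 0.40 in CsA 48 h replicates 1, 2 and 3. Counts of calls with time and the medians of the CsA comparisons at 48 h are therefore given with and without that replicate.

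Promoter sequences are shown because many of these genes moved together and the core motif of the TFEB family lay mostly in 1 of the gene groups. RefSeq promoter windows on GRCh38.p14, from 250 bases before to 50 bases after the start site, were matched for 32 of the 39 genes; those unmatched were UVRAG and the lysosomal genes CTSB, HEXA, PSAP, LAMP2, ATP6V1H and ATP6V1C1, so the lysosomal share covers 12 of 18 genes. CACGTG, which reads the same on both strands, was found in 7 of 12 lysosomal genes (58.3%) and in 1 of 17 autophagosome genes (5.88%), against 10.8% of 8696 promoters of tested genes and 7.26% of all 35116 promoters. The longer TCACGTGA, which contains CACGTG, was found in 5 of the 12 and in 1 of the 17, against 2.16% of promoters of tested genes. The full palindrome GTCACGTGAC, which contains both, was found in GAA and MCOLN1, against 0.816%. Below are the stretches of 7 matches or groups of matches, all upstream of the start site and written 5′ to 3′ on the gene's strand, with CACGTG and the adjoining bases that continue GTCACGTGAC in capitals. They show the repeats in LAMP1 and CTSA, the single matches in CTSD and NEU1, the full palindrome in MCOLN1 and the 1 match upstream of an autophagosome gene, ATG3.
LAMP1, chr13:113297030-113297117, plus strand: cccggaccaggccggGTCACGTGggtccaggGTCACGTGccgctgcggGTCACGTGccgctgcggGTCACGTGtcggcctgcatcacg
LAMP1, chr13:113297195-113297233, plus strand: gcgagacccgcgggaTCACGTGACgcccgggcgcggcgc
CTSA, chr20:45891276-45891332, plus strand: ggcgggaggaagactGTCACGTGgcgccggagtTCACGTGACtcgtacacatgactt
CTSD, chr11:1763952-1763989, minus strand: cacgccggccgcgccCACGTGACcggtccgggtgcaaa
NEU1, chr6:31862927-31862963, minus strand: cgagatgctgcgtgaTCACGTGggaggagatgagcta
MCOLN1, chr19:7522566-7522623, plus strand: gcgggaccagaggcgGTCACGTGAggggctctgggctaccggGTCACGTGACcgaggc
ATG3, chr3:112561963-112561997, minus strand: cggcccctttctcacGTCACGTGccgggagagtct

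The first LAMP1 stretch holds 4 matches in 88 bases, and the whole LAMP1 window holds 6. GAA, the lysosomal glucosidase, and ATP6V0D1, a subunit in the membrane sector of the proton pump, were the other lysosomal genes with a match. These are matches of letters in a window, and binding was not measured.

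The clearest change in these genes was with time in culture, in control cells as well as under CsA. From 12 h to 48 h in controls, 15 of the 39 genes rose and 0 fell (limma, adjusted p under 0.05 over all 10508 genes). Over all tested genes 26.2% were called, 12.5% as higher and 13.7% as lower, so the genes of the autophagosome and lysosome were called higher at 38.5% and lower not at all. The median difference was 0.49 over the 39 genes and 0.01 over all tested genes. With replicate 3 left out of both 48 h groups all 15 were called again, at 0.98 to 1.23 times these differences. That replicate was set apart by its small shift over genes called higher, so this fit is no independent check. In it 23.7% of all tested genes were called higher. Over 25 alternative fits LAMP1 was called in 8, PSAP in 14 and SQSTM1 in 15, while MAP1LC3B, GABARAPL1, CTSD, NEU1 and NPC1 were called in all. The 3 control 48 h arrays were above all 3 control 12 h arrays for 21 genes and below all 3 for ATG7, MITF and GLA, where 24.9% and 25.2% of all tested genes separated in these directions. Time in culture, the age of the medium, cell density and any difference in handling between the harvests cannot be told apart in this design, and in RNA from whole cultures a change in every cell cannot be told apart from a change in some of them.

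**Figure D1:**
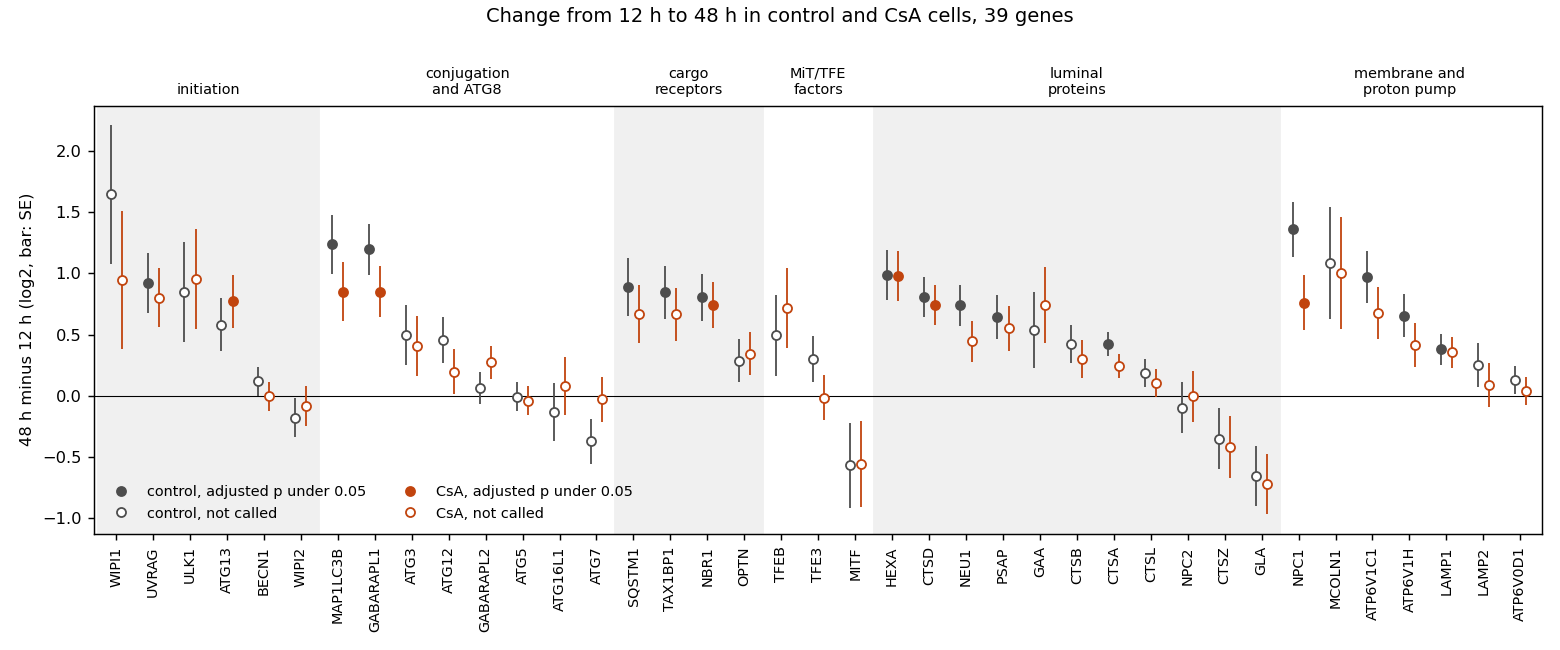
Difference between 48 h and 12 h (log2) for each of the 39 genes in control cells (grey) and CsA cells (red), ordered by role and then by the control value; bars are limma standard errors and filled points have an adjusted p under 0.05. Cargo receptors and membrane and pump genes lie above 0 throughout, while MITF, CTSZ and GLA lie below it in both treatments.

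Of the 6 initiation genes, UVRAG, a subunit of the beclin complex, rose in controls, by 0.92 (SE 0.24, adjusted p = 0.022), and with the replicate number as a block ATG13 and WIPI1 were called as well, which made 3. WIPI1, which binds phosphatidylinositol 3-phosphate on the growing membrane, had the largest difference of all 39 genes but did not pass. Its log2 values were 7.98, 7.79 and 8.38 on the control 12 h arrays and 10.66, 9.63 and 8.79 on the control 48 h arrays (replicates 1, 2 and 3). All 48 h values were above all 12 h values, with replicate 3 the highest at 12 h and the lowest at 48 h. The difference was 1.65 (SE 0.57, adjusted p = 0.054; with the block, adjusted p = 0.026). Its second probe set differed by 1.77. ULK1, the kinase that starts the process, differed by 0.85 without passing (adjusted p = 0.14), and BECN1 and WIPI2 by 0.12 and -0.18.

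Of the 8 conjugation genes, 2 rose in controls, both of them ATG8 proteins. MAP1LC3B, which encodes LC3B, was at 11.53, 11.24 and 11.34 in control 12 h and at 12.84, 12.77 and 12.22 in control 48 h. The groups did not overlap, and replicate 3 was the lowest at 48 h. The difference of 1.24 (SE 0.24, adjusted p = 0.0066) is 2.36-fold. GABARAPL1 was at 7.85, 7.74 and 7.78 in control 12 h and at 9.11, 8.85 and 8.99 in control 48 h. Here replicate 3 lay between the others, and the difference was 1.20 (SE 0.21, adjusted p = 0.0042), or 2.29-fold. The second probe sets of MAP1LC3B and GABARAPL1 differed by 0.94 and 1.48. ATG3, the E2-like enzyme of the system, was at 12.10, 12.06 and 12.11 in control 12 h and at 12.93, 12.64 and 12.19 in control 48 h. Its arrays did not overlap, nor did those of ATG12, but their differences of 0.50 and 0.46 did not pass (adjusted p = 0.15 and 0.091), and without replicate 3 at 48 h ATG3 passed at 0.70 (adjusted p = 0.002). ATG5 differed by -0.01 and GABARAPL2, another ATG8 protein, by 0.06, while ATG7, the E1-like enzyme of the system, differed by -0.37 (95% confidence interval -0.78 to 0.04).

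3 of the 4 cargo receptors rose in controls. SQSTM1 was at 11.52, 11.30 and 11.34 in control 12 h and at 12.63, 12.33 and 11.87 in control 48 h. All 48 h arrays were higher, again with replicate 3 nearest to the 12 h values, and the difference was 0.89 (SE 0.24, adjusted p = 0.023). The other SQSTM1 probe sets above the detection filter differed by 1.0 and 0.14. NBR1, a receptor for ubiquitinated cargo like p62, was at 9.50, 9.44 and 9.29 in control 12 h and at 10.43, 10.20 and 10.01 in control 48 h, a difference of 0.80 (SE 0.19, adjusted p = 0.014). TAX1BP1, a receptor that binds ubiquitin and ATG8 proteins, was at 11.46, 11.37 and 11.35 in control 12 h and at 12.51, 12.18 and 12.03 in control 48 h, a difference of 0.85 (SE 0.22, adjusted p = 0.019). In both, every 48 h value exceeded every 12 h value. The fourth receptor, OPTN, differed by 0.29 on the probe set used and by 0.88 on its other one.

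The 3 transcription factors did not pass with time. TFEB was at 4.01, 4.05 and 3.98 in control 12 h and at 5.19, 4.32 and 4.02 in control 48 h, close to the threshold of 4 used for detection on most arrays. It passed that filter only through the control 48 h arrays, with replicate 3 just above it. Its difference was 0.49 (SE 0.33, adjusted p = 0.28), and its other probe set differed by -0.03. TFE3 differed by 0.30 (adjusted p = 0.25). MITF lay at 11.38, 11.44 and 11.44 in control 12 h and at 10.32, 10.94 and 11.29 in control 48 h. All 48 h values were lower, though replicate 3 was lower by little, and the difference of -0.57 did not pass (adjusted p = 0.24). Arrays measure their mRNA and not their entry into the nucleus.

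Of the 11 luminal lysosomal proteins measured, 5 rose in controls. CTSD, the aspartic protease cathepsin D, was at 8.12, 8.29 and 8.05 in control 12 h and at 9.12, 9.11 and 8.66 in control 48 h. The difference was 0.81 (SE 0.16, adjusted p = 0.0078). HEXA, a subunit of beta-hexosaminidase, was at 9.25, 9.14 and 8.80 in control 12 h and at 10.31, 10.13 and 9.71 in control 48 h, a difference of 0.99 (SE 0.20, adjusted p = 0.0084). For both enzymes the groups were separate, and replicate 3 was the lowest array at each time. NEU1, a sialidase, was at 11.65, 11.60 and 11.20 in control 12 h and at 12.14, 12.27 and 12.25 in control 48 h, a difference of 0.74 (SE 0.17, adjusted p = 0.012). CTSA, the protective protein that forms a complex with NEU1, was at 10.72, 10.70 and 10.61 in control 12 h and at 11.26, 11.11 and 10.94 in control 48 h, a difference of 0.42 (SE 0.10, adjusted p = 0.014). PSAP, the precursor of the saposins, was at 13.04, 13.10 and 12.79 in control 12 h and at 13.78, 13.73 and 13.35 in control 48 h, a difference of 0.65 (SE 0.18, adjusted p = 0.027). None of these 3 genes had a control 48 h value within its 12 h range.

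GLA, the alpha-galactosidase that is deficient in Fabry disease, went the other way. It was at 11.49, 11.38 and 11.22 in control 12 h and at 10.44, 10.56 and 11.11 in control 48 h. Every 48 h value was lower, replicate 3 by the least. The difference of -0.66 (SE 0.24) did not pass in the fit without a block (adjusted p = 0.070) and passed with the replicate block (adjusted p = 0.048). NPC2, the luminal partner of NPC1 in cholesterol export, and CTSZ, a carboxypeptidase, also had values below 0, at -0.10 and -0.35.

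Among the 7 membrane and pump genes, 4 rose in controls and all 7 had values above 0. NPC1, the membrane protein that exports cholesterol from the lysosome, was at 11.25, 10.86 and 10.61 in control 12 h and at 12.24, 12.34 and 12.23 in control 48 h. The 48 h values lay close together and above all those at 12 h. The difference of 1.36 (SE 0.22, adjusted p = 0.0033), or 2.57-fold, had the smallest adjusted p of the 39 genes. Its second probe set above the detection filter differed by 0.41. ATP6V1C1, a subunit of the pump's cytosolic sector, was at 10.98, 10.84 and 10.63 in control 12 h and at 11.82, 11.89 and 11.66 in control 48 h, a difference of 0.97 (SE 0.21, adjusted p = 0.011), and its 3 other probe sets differed by 0.71 to 0.93. ATP6V1H, from the same sector, rose by 0.66 (SE 0.18, adjusted p = 0.023), whereas ATP6V0D1, from the membrane sector, differed by 0.13. LAMP1, the abundant membrane glycoprotein of the lysosome, was at 13.60, 13.65 and 13.49 in control 12 h and at 14.12, 13.96 and 13.80 in control 48 h. Its difference was 0.38 (SE 0.13), just inside the threshold (adjusted p = 0.0498). The other LAMP1 probe sets differed by 0.39, 0.4 and 0.07. MCOLN1, the lysosomal calcium channel, differed by 1.09 without passing.

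**Figure D2:**
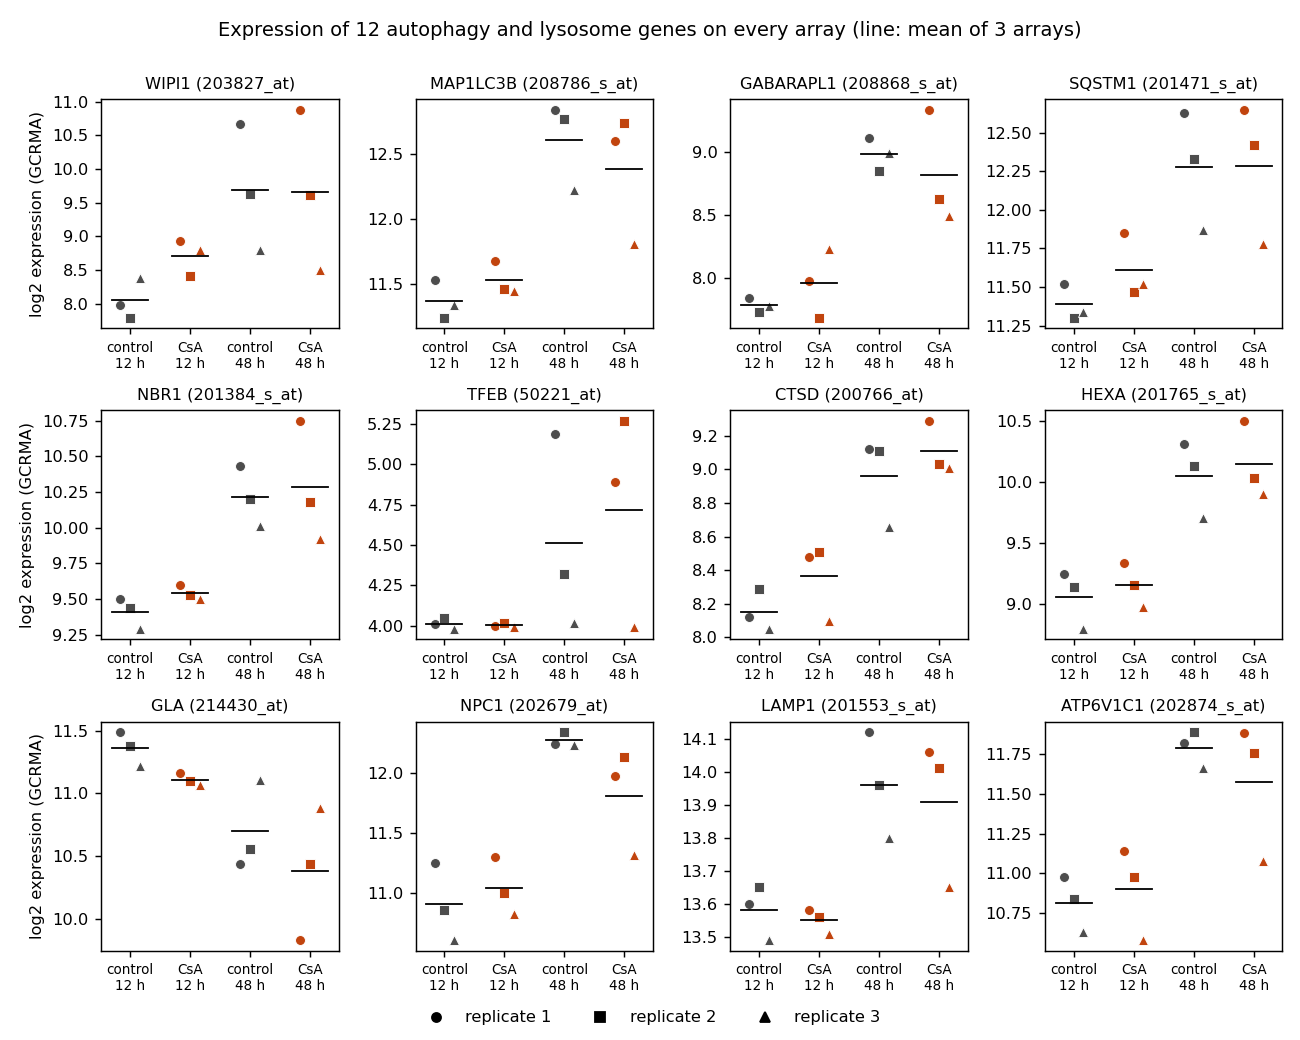
Log2 expression on every array for 12 of the genes, with the 3 replicates of each group as points and their mean as a line; each panel has its own axis, which does not start at 0. MAP1LC3B, HEXA and NPC1 stand higher on all 48 h arrays than on all 12 h arrays in both treatments, GLA stands lower, and CsA 48 h replicate 3 is often the 48 h array nearest to the 12 h values.

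In controls the median difference with time was 0.54 over the 18 autophagosome genes, of which 6 rose (33.3%), and 0.48 over the 18 lysosomal genes, of which 9 rose (50%). Under CsA the medians were 0.54 and 0.39, with 4 and 3 genes higher, and the difference between the 2 groups of genes was not tested. By array, the median shift of the autophagosome genes from the control 12 h mean was 0.90, 0.50 and 0.29 in control 48 h replicates 1, 2 and 3, and that of the lysosomal genes was 0.60, 0.42 and 0.34. The autophagosome genes thus varied more between replicates. Of the 10 genes called higher in controls that had a promoter window, 4 held CACGTG (40%: CTSA, CTSD, NEU1 and LAMP1). Of the other 22, 4 did (18.2%: ATG3, GAA, MCOLN1 and ATP6V0D1). All of these but ATG3 are lysosomal, so the split by call is mixed with the split by role, and the difference was not tested. MAP1LC3B, GABARAPL1, SQSTM1 and NPC1 rose with no match in their windows. Only the exact core in these windows was searched, so other sites were not looked for.

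**Figure D3:**
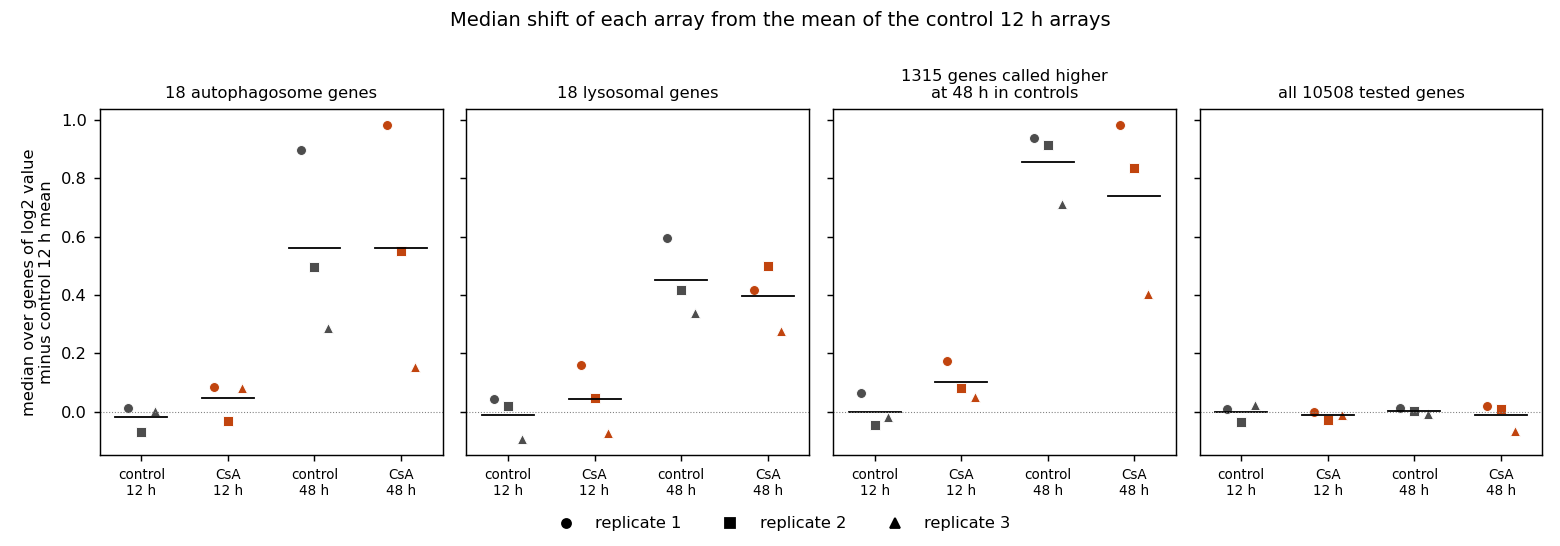
Median over genes of the log2 value minus the control 12 h mean, for each array, in the 18 autophagosome genes, the 18 lysosomal genes, the 1315 genes called higher at 48 h in controls and all 10508 tested genes; lines are group means. At 12 h the autophagosome genes lie between -0.068 and 0.086 and the lysosomal genes between -0.094 and 0.16; at 48 h they lie between 0.152 and 0.983 and between 0.278 and 0.595, lowest on the third replicate of each group.

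Under CsA 7 of the 39 genes rose from 12 h to 48 h and 0 fell, where 14.4% of all tested genes were called, 6.77% as higher and 7.58% as lower. They were ATG13, a subunit of the ULK1 complex, MAP1LC3B, GABARAPL1, NBR1, CTSD, HEXA and NPC1, of which all but ATG13 also rose in controls. With the replicate block 10 rose (6.87% of genes), with PSAP, SQSTM1 and TAX1BP1 added, and GLA fell (8.27% of genes). This took the receptors called under CsA from 1 to 3, the luminal proteins from 2 to 4 and the lysosomal genes from 3 to 5. In controls the block gave 18 higher (12.8% of genes), with ATG13, WIPI1 and CTSB added, and 1 lower (14%), GLA. CTSB differed by 0.42 in controls on the probe set used, and by 0.4, 0.26, -0.01 and -0.32 on its others. The 3 CsA 48 h arrays were above the 3 CsA 12 h arrays for 16 genes (16% of all tested genes) and below them for GLA (18.9%). The 16 include GAA, which passed the detection filter only through the CsA 48 h arrays.

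The difference between the counts under CsA and in controls was not tested, and it was smaller without replicate 3. MAP1LC3B was at 11.68, 11.46 and 11.45 in CsA 12 h and at 12.60, 12.74 and 11.81 in CsA 48 h, a difference of 0.85 (SE 0.24, adjusted p = 0.042). NPC1 was at 11.30, 11.0 and 10.83 and then at 11.97, 12.13 and 11.32, a difference of 0.76 (SE 0.22, adjusted p = 0.047). In both genes the third CsA 48 h array lay far below the other CsA 48 h arrays and only just above the highest 12 h array. NPC1's second probe set differed by -0.06 here. HEXA, at 9.34, 9.16 and 8.98 and then at 10.5, 10.03 and 9.90, rose by 0.98 (SE 0.20, adjusted p = 0.014), and CTSD, at 8.48, 8.51 and 8.10 and then at 9.29, 9.03 and 9.01, rose by 0.74 (SE 0.16, adjusted p = 0.018). GABARAPL1, at 7.98, 7.69 and 8.23 and then at 9.33, 8.63 and 8.49, rose by 0.85 (SE 0.21, adjusted p = 0.026), and NBR1, at 9.60, 9.53 and 9.50 and then at 10.75, 10.18 and 9.92, rose by 0.74 (SE 0.19, adjusted p = 0.030). Replicate 3 was the lowest CsA 48 h array in all 4, without reaching the 12 h range.

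CsA 48 h replicate 3 was the lowest array of its group for 30 of the 39 genes (46.0% of all tested genes), and control 48 h replicate 3 for 23 (38.8%). Without CsA 48 h replicate 3, 20 genes rose and 2 fell under CsA (19.6% and 17.4% of genes), and 19 rose and 1 fell in controls (18.9% and 19.5%). Without replicate 3 in both 48 h groups, which leaves 2 arrays in each, 22 rose and 2 fell under CsA (23% and 19.7% of genes) and 23 rose and 3 fell in controls (23.7% and 22.3%). In that fit 24 genes were called in both treatments, among them ULK1, WIPI1, MCOLN1 and ATP6V1C1 as higher and GLA and MITF as lower. The 24 include TFEB as higher, which passed the detection filter only through the control 48 h arrays, so its call is no separate evidence of a rise. Leaving out 1 of several other arrays lowered the counts. Under CsA 2, 2 and 1 genes were called without CsA 12 h replicate 1, 2 or 3 (5.13%, 5.13% and 2.56% of the 39, where 5.22%, 5.67% and 4.11% of all tested genes were called). Without CsA 48 h replicate 1 or 2, 1 and 3 were called (2.56% and 7.69%, against 5.41% and 7.46%). Without control 12 h replicate 2 or 3 or control 48 h replicate 2, 4 were called (10.3%, against 10.6%, 11% and 11.5%). By these shares, which count both directions, the 39 genes lay at about the share of all genes or below it in these 8 fits. Against genes called higher only, as used for the main fit, the share of all genes is smaller. For example, 295 of 548 calls were higher without CsA 12 h replicate 1, and 543 of 1116 without control 12 h replicate 2. Without CsA 48 h replicate 1, 282 of 10508 genes were called higher, about the share of the 39 genes called in either direction. The shares for rises were not set side by side in each fit, so the 8 fits do not settle where the 39 genes lie for rises. Without control 12 h replicate 1, 5 were called under CsA (12.8%, against 10.3%). In controls 9 and 8 were called without control 12 h replicate 2 or 3 (23.1% and 20.5%, against 14.3% and 12.6%), and 7 without control 48 h replicate 1 (17.9%, against 13.5%). MAP1LC3B, GABARAPL1, CTSD, NEU1 and NPC1 were called higher in controls under all 25 alternatives run, with the adjusted p of NPC1 between 0.00051 and 0.028.

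CsA against control was compared at each time by group and by numbered pair. At 12 h 0 of the 39 genes were called and 0% of all tested genes (limma). At an unadjusted p under 0.05 were 138 genes of 10508 and 0 of the 39. The replicate block called 3 genes, none of them among the 39. It put 765 genes (7.28%) and 3 of the 39 at an unadjusted p under 0.05. CsA values were above control for 27 genes and below for 12, with a median of 0.06. Over all tested genes 45.3% were above control, with a median of -0.01. In all 3 pairs 15 genes were above 0 (18.9% of all tested genes) and 3 were below (22.4%). The arrays of CsA and control did not overlap for BECN1, WIPI1 and TAX1BP1, which were higher (5.37% of genes), and for GLA, which was lower (6.57%).

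**Figure D4:**
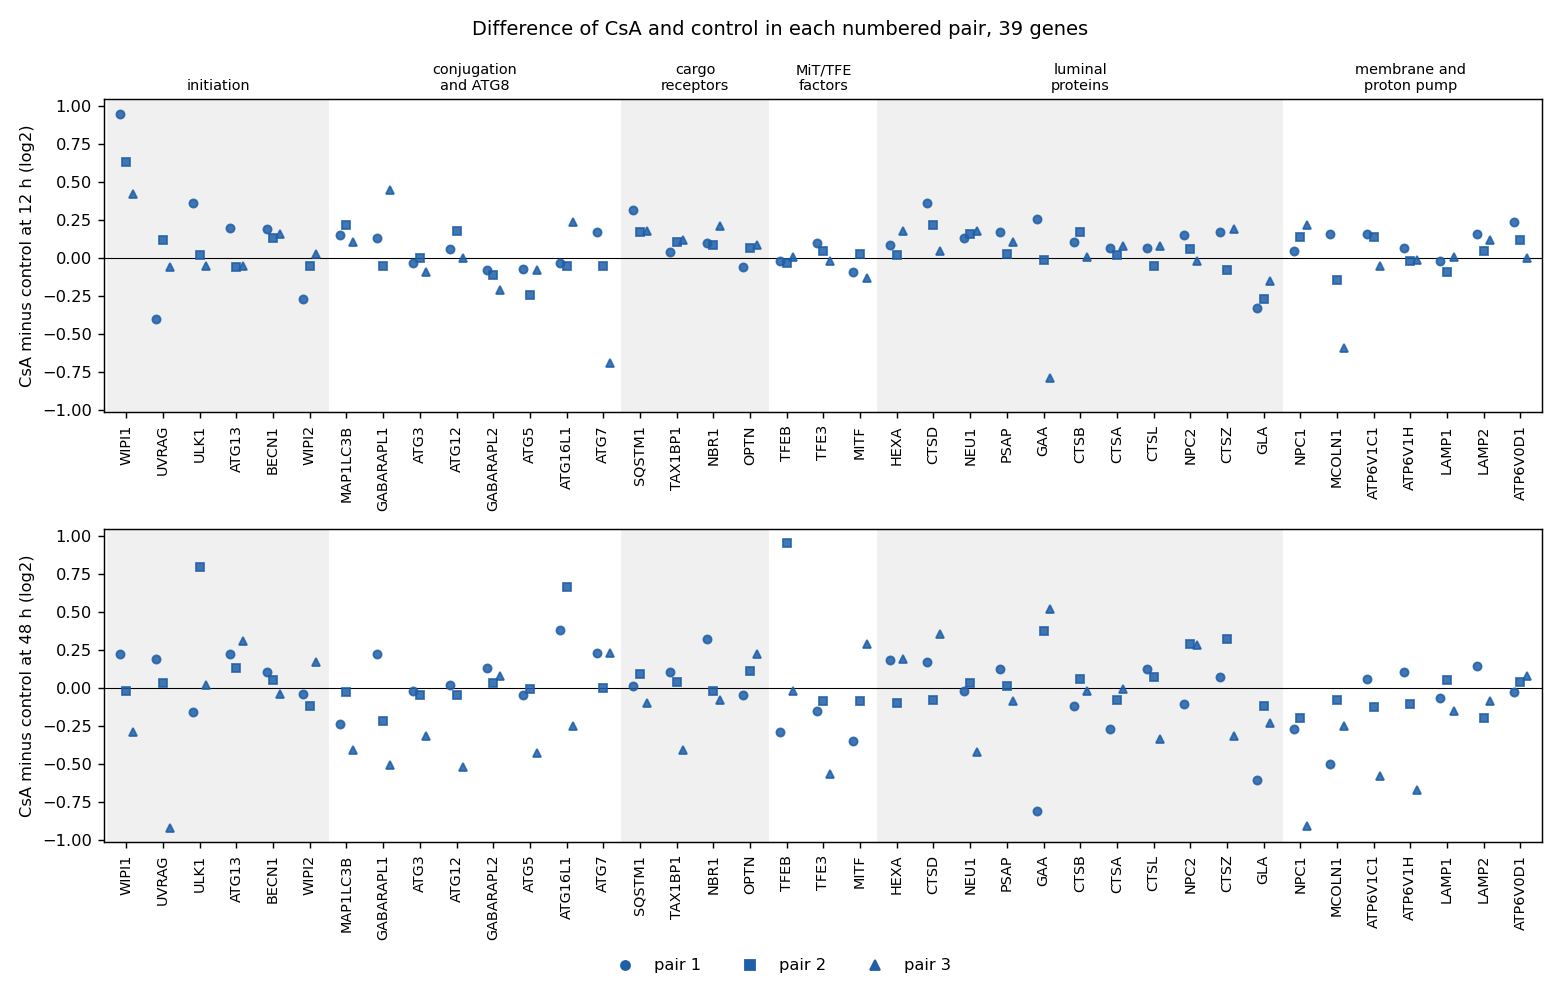
CsA minus control (log2) in each numbered pair at 12 h (top) and 48 h (bottom), for the 39 genes in the order of the time plot. WIPI1 is above 0 in every pair at 12 h and on both sides of 0 at 48 h, GLA and ATG5 are below 0 in all 6 pairs, and pair 3 at 48 h holds most of the values below -0.4.

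WIPI1 had the largest difference at 12 h, with CsA values of 8.93, 8.41 and 8.79 against the control values of 7.98, 7.79 and 8.38. CsA was higher in each pair, by 0.95, 0.63 and 0.42, and the lowest CsA value lay just above the highest control value. The group difference was 0.67 (95% confidence interval -0.59 to 1.92, adjusted p = 1.0), or 0.35 to 0.98 with the block (adjusted p = 0.35), and the second probe set gave 0.59. The first interval carries the 48 h spread too, with SD 0.94 in control 48 h and 1.19 in CsA 48 h. At 12 h the SD was 0.30 in controls and 0.27 under CsA. BECN1 was at 10.08, 10.15 and 10.04 under CsA and at 9.89, 10.02 and 9.88 in controls. All CsA values were higher, by a mean of 0.16 (95% confidence interval -0.10 to 0.42). SQSTM1, at 11.85, 11.47 and 11.52 under CsA, was higher in each pair by 0.32, 0.17 and 0.18, though the groups overlapped, and its other probe sets above the filter gave 0.26 and -0.04.

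The other genes above 0 in every pair at 12 h were ATG12, the ubiquitin-like protein joined to ATG5, MAP1LC3B, the receptors TAX1BP1 and NBR1, the luminal proteins CTSA, CTSB, CTSD, HEXA, NEU1 and PSAP, and the membrane proteins LAMP2 and NPC1. Their group differences ran from 0.06 for CTSA to 0.21 for CTSD. GABARAPL2 was below 0 in each pair, at -0.08, -0.11 and -0.21. The 18 autophagosome genes had median differences of 0.08, 0.05 and 0.06 in pairs 1, 2 and 3, and the 18 lysosomal genes 0.14, 0.03 and 0.03, where all tested genes had medians of -0.003, 0.008 and -0.031.

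At 48 h 0 of the 39 genes were called and 0% of all tested genes (limma). At an unadjusted p under 0.05 were 265 genes and 0 of the 39. The block called 0 genes, and put 1297 genes (12.3%) and 5 of the 39 at an unadjusted p under 0.05. CsA was above control for 18 genes and below for 21, with a median of -0.03, where 45.3% of all tested genes were above control. In all pairs ATG13 and GABARAPL2 were above 0 (13.4% of all tested genes), and 8 genes were below (16.1%): the conjugation genes ATG3 and ATG5, MAP1LC3B, TFE3, CTSA, GLA, NPC1 and MCOLN1. The median of the autophagosome genes was 0.10, 0.01 and -0.17 in pairs 1, 2 and 3, and that of the lysosomal genes was -0.03, -0.04 and -0.12. Without CsA 48 h replicate 1, the group median of the autophagosome genes was -0.17, and without CsA 48 h replicate 3 it was 0.17. Pair 3 held the lowest median of each group, and leaving out CsA 48 h replicate 3 turned the difference of MAP1LC3B from -0.23 to 0.06.

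NPC1 was the gene whose CsA and control arrays did not overlap at 48 h (2.48% of genes lower). Control values of 12.24, 12.34 and 12.23 stood against 11.97, 12.13 and 11.32 under CsA. The differences were -0.27, -0.20 and -0.91 in pairs 1, 2 and 3, so pair 3 was the farthest from 0, and the group difference was -0.46 (95% confidence interval -0.96 to 0.03, adjusted p = 0.999). The second probe set gave 0.04. TFE3, at 10.43, 10.48 and 10.20 in controls and 10.28, 10.39 and 9.63 under CsA, had a difference of -0.27 (95% confidence interval -0.69 to 0.14), again with the lowest value on replicate 3.

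GLA and ATG5 were below control in all 6 pairs over both times. Of all tested genes, 22.4% were below control in all pairs at 12 h and 16.1% at 48 h. The share below in all 6 pairs was not counted. GLA was at 11.16, 11.10 and 11.07 in CsA 12 h and at 9.83, 10.44 and 10.88 in CsA 48 h. Its pairs 1, 2 and 3 differed by -0.33, -0.27 and -0.15 at 12 h, and at 48 h by -0.61, -0.12 and -0.23, with group differences of -0.25 (95% confidence interval -0.79 to 0.29) and -0.32 (-0.86 to 0.22), neither called. GLA has 1 probe set here. ATG5, which with ATG12 forms the E3-like enzyme of the system, was at 10.19, 9.93 and 10.27 in CsA 12 h against 10.26, 10.17 and 10.35 in controls, and at 10.18, 10.15 and 9.93 in CsA 48 h against 10.23, 10.17 and 10.36. The groups overlapped at both times, and the differences were -0.13 and -0.16. Its 2 other probe sets gave 0.27 and 0.01 at 12 h and 0.03 and -0.18 at 48 h.

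LAMP1 and TFEB showed no steady difference. LAMP1 was at 13.58, 13.56 and 13.51 in CsA 12 h and at 14.06, 14.01 and 13.65 in CsA 48 h, which left differences from control of -0.03 (95% confidence interval -0.31 to 0.25) and -0.06 (-0.34 to 0.23). TFEB was at 4.0, 4.02 and 3.99 in CsA 12 h and at 4.89, 5.27 and 3.99 in CsA 48 h. At 12 h its values sat near the threshold on all 6 arrays. The 48 h difference was 0.21, with pair differences of -0.29, 0.95 and -0.02.

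The change of the CsA effect from 12 h to 48 h was called for 0 of the 39 genes and 0% of all tested genes (limma; 162 genes at an unadjusted p under 0.05, and 0 called with the block). It was below 0 for 16 of the 18 lysosomal genes (median -0.09) and for 11 of the 18 autophagosome genes (median -0.08). Over all tested genes the median was -0.002, with 49.6% of genes above 0. Without CsA 48 h replicate 3 the change was below 0 for 12 lysosomal genes (median -0.05) and for 6 autophagosome genes, whose median turned to 0.10. Without replicate 3 in both 48 h groups the medians were -0.10 and 0.01. The comparison shares all arrays with both CsA comparisons and with the time comparisons. The largest statistics belonged to NPC1, at -0.60 (95% confidence interval -1.30 to 0.10), ATG7, at 0.34, and CTSA, at -0.18. ATG7 was at 6.55 ± 0.14 (SD, n = 3) in control 48 h and 6.70 ± 0.14 in CsA 48 h, and at 6.92 ± 0.40 and 6.73 ± 0.16 at 12 h.

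The wider system was read from 4 further lists of genes outside the 39, also chosen with earlier results of these data known. Of 39 other lysosomal proteins tested, 19 rose and 0 fell with time in controls, and 17 rose and 0 fell under CsA. They included the acid ceramidase ASAH1, which rose by 1.06 (SE 0.13) in controls and 1.01 (SE 0.13) under CsA, the sphingomyelinase SMPD1, by 0.92 and 1.07, the protease CTSH, by 1.53 and 1.53, the mannosidase MANBA, by 1.16 and 1.01, and the sialic acid carrier SLC17A5, by 1.60 and 1.30. LGMN, the asparaginyl endopeptidase, rose by 1.15 and 0.80. SMPD1 lay near the detection threshold at 12 h, at 4.29, 4.05 and 4.03 in controls and 4.29, 4.07 and 4.04 under CsA. The share of this list called higher was 48.7% in controls, where 12.5% of all tested genes were, and 43.6% under CsA, where 6.77% were.

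Among 27 genes of nutrient sensing at the lysosome, 8 rose (29.6%) and 1 fell in controls, where 12.5% and 13.7% of all tested genes did, and 5 rose (18.5%) and 0 fell under CsA, where 6.77% and 7.58% did. RRAGD and RRAGC, GTPases that bring mTORC1 to the lysosome, rose by 2.09 (SE 0.29) and 0.94 (SE 0.22) in controls and by 1.97 and 0.76 under CsA. FLCN, FNIP1 and FNIP2, which act on those GTPases, rose in controls by 0.78, 1.03 and 1.15, and of these FNIP1 also under CsA, by 0.73. DEPTOR, an inhibitor of mTOR, rose by 1.53 and 1.41.

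Of 27 other autophagy genes 6 rose (22.2%) and 3 fell in controls, and 3 rose (11.1%) and 1 fell under CsA; the falls were no more frequent than the 13.7% and 7.58% of all tested genes. ATG2B, a lipid transfer protein, rose by 1.19 and 1.17, GABARAP by 0.64 and 0.68 and RB1CC1, the scaffold of the ULK1 complex, by 0.98 and 1.00. EPG5, a tether for fusion with the lysosome, rose in controls by 1.30. PIK3R4, a subunit of the beclin complex, fell by 0.49 in controls and fell by 0.44 under CsA, and VAMP8, a SNARE of the fusion step, fell by 0.70 in controls. Of 13 other proton pump genes 3 rose (23.1%) and 1 fell in controls, a lower share than the 13.7% of all tested genes, and 3 rose and 0 fell under CsA. ATP6V1A, ATP6V1G1 and ATP6AP2 rose by 0.73, 0.50 and 0.37 in controls, and ATP6V0A1, from the membrane sector, fell by 0.40. Without replicate 3 in both 48 h groups, the other lysosomal proteins called higher were 21 in controls and 22 under CsA, the nutrient sensing genes 12 and 13, the other autophagy genes 12 and 13 and the other pump genes 5 and 6, where 23.7% and 23% of all tested genes were. Those called lower were 1, 2, 3 and 3 in controls and 1, 1, 2 and 0 under CsA, in the same order of lists (22.3% and 19.7%). In CsA against control, 0 genes of the 4 lists were called at 12 h or 48 h. The largest statistics at 12 h belonged to ATG4D at 0.22, ATG9A at -0.21, FLCN at 0.25, FNIP1 at 0.12, SGSH at -0.27, LGMN at 0.21, ATP6V0A1 at -0.22 and ATP6V1A at -0.20. At 48 h they belonged to AMBRA1 at -0.27, GABARAP at 0.13, LAMTOR2 at 0.23, FNIP1 at -0.18, CTSC at -0.27, IDS at 0.31, ATP6V0E1 at 0.13 and ATP6V1A at -0.09.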

How the data were processed

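The authors deposited log2 expression values of 54675 probe sets for 12 Affymetrix arrays, which the submitters' processing notes credit to GCRMA (background correction, quantile normalisation and probe summary; version not given in the sources used here). Their log2 scale was read from the values, which lie between 0.68 and 16.0. After leaving out 62 control probe sets, 41091 probe sets carried 1 gene symbol, 1801 several and 11721 none. Each gene was read from its probe set with the highest mean over all arrays. A gene was tested if it was above 4 on all 3 arrays of any group. Genes were compared with limma 3.58.1 in R 4.3.3 as 4 group means (8 residual degrees of freedom, Benjamini-Hochberg over 10508 genes, threshold 0.05, two-sided). The variance of a gene is shared by the 4 groups, so intervals and p-values at 12 h also carry the spread at 48 h.

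The members, gene lists, tests and rule for named genes were chosen with earlier results of these data known. All 39 genes could be named. Values on every array are given for 7 genes named whatever their values, up to 12 called genes and the 3 largest statistics in each comparison. Of each wider list, up to 6 called genes and the 2 largest statistics for CsA are given. Genes in the same direction in all pairs are named, and others served to complete a role.

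The labels number the replicates. At each time, CsA and control arrays with 1 number shared their deviations from the group means (correlations 0.37, 0.53 and 0.59 at 12 h and 0.78, 0.54 and 0.74 at 48 h), so the pairing comes from the data, and a second fit, blocked on replicate number inside each time, is given where it changed a call. For 48 h against 12 h the block was a random effect. In simulated data for CsA against control, with 200 of 10508 genes changed, the fit without the block recovered a difference of 1 for 62.5% at 12 h and 63% at 48 h, and a difference of 2 for 95% and 91.5%, with 0 false calls. The blocked fit recovered 77.5%, 80%, 98% and 97%, with 7 false calls at 12 h and 15 at 48 h. Every simulated array had the same SD per gene, pooled over the groups, and a fixed part of the variance was shared within a pair. The near-equal recovery at 12 h and 48 h and the gain with the block follow from those settings. They do not describe the differing spread of the real arrays at each time. Arrays have no read depth, and their number limits the precision. Promoters came from RefSeq tables of GRCh38.p14.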

Additional observations from a re-analysis of the deposited data

Results flagged for a closer look

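The CsA effect lay on one side of 0 in all 3 pairs at 12 h and on the other side in all 3 pairs at 48 h for 4 of the 39 genes, a pattern found in 5.29% of all tested genes. The change of the effect from 12 h to 48 h was -0.39 for MAP1LC3B, -0.18 for CTSA, -0.60 for NPC1 and 0.21 for GABARAPL2. Limma's interaction called none of them, with adjusted p = 1.0 each, and pair 3 had the largest 48 h difference for MAP1LC3B and NPC1.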

How the results depend on the processing

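No alternative called any of the 39 genes in the CsA comparisons or their interaction. Over all genes, CsA at 12 h gave 3 calls with the replicate block, 5 with the block on 12 h arrays alone, 8 with the block and trended, robust moderation (which gave 2 for the interaction) and 1 without the filter. For 48 h against 12 h under CsA the block called 11 of the 39 genes and the fit without the filter 2, of 988 genes in all. With time, the block also moved the initiation count in controls from 1 to 3 and, under CsA, the receptors from 1 to 3, the luminal proteins from 2 to 4 and the lysosomal genes from 3 to 5. The mean over probe sets moved the autophagosome median at 12 h to 0.113 and turned LAMP1 to 0.034 at 12 h, 0.039 at 48 h and 0.0053 for the interaction.

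Leaving out 1 array or pair gave these ranges. Genes called were 0 to 39 for CsA at 12 h, 0 to 6 for the interaction, 819 to 4835 for time in controls and 198 to 4485 under CsA; of the 39 genes, 6 to 26 and 0 to 24 were called with time. The autophagosome median ran from 0.021 to 0.090 at 12 h and -0.17 to 0.169 at 48 h, the lysosomal median from 0.010 to 0.100 and -0.118 to -0.003. CsA differences at 12 h ran from -0.0734 to 0.0035 for LAMP1, -0.0089 to 0.3097 for NPC1 and -0.0304 to 0.0056 for TFEB. At 48 h they ran from -0.0060 to 0.2613 for CTSD, -0.1374 to 0.0725 for LAMP1, -0.421 to 0.0605 for MAP1LC3B, -0.2007 to 0.255 for SQSTM1 and -0.1592 to 0.5758 for TFEB. The interaction ran from -0.2168 to 0.0505 for CTSD, -0.107 to 0.1029 for LAMP1, -0.424 to 0.0317 for SQSTM1 and -0.1466 to 0.5884 for TFEB. The cause of these moves was not tested. A group left with 2 arrays is assumed to vary like the others. The fits without a pair and the filter over any 3 arrays were chosen after seeing the data.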
